A study of Mus musculus with 12 samples.

Results

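The effect of the ground-state medium 2iL on mouse embryonic stem (ES) cells was measured in the absence of a BET inhibitor. The comparison is chosen by label, and takes the 4 of 12 RNA sequencing libraries that hold cells with no knockout in their label and the solvent DMSO. Of these, 2 were grown in serum/LIF and 2 in 2iL. All 4 were harvested after 60 h with DMSO. The serum/LIF cells were kept in high-glucose DMEM with 15% fetal bovine serum and 1000 U/ml of the cytokine LIF on mouse embryonic fibroblasts whose division was blocked by mitomycin-C, and were put on gelatin shortly before treatment. The 2iL cells were kept on gelatin in a serum-free mix of DMEM/F12 and Neurobasal with N2 and B27 supplements, the same LIF, 1 µM of the MEK inhibitor PD0325901 and 3 µM of an inhibitor that the growth protocol leaves unnamed. The design text gives the targets of the 2 inhibitors as MEK and GSK3. Serum, base medium, feeder history and inhibitors therefore differ together, and their parts in any difference cannot be told apart. A further 4 libraries hold the same media with 100 nM JQ1, a displacer of BET bromodomain proteins, and 2 hold GSK3 knockout cells in serum/LIF with DMSO. The strain, the clone of the knockout and whether replicates were separate cultures are not given in the sources used here, so every p-value reflects how far these particular libraries varied, and that variation may be technical.

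ES cells come from the inner cell mass of the blastocyst and can form every tissue of the embryo. In serum/LIF they form a mixed population in which single cells drift between a naive state, like that of the early epiblast, and states closer to differentiation. FGF produced by the cells themselves acts through MEK and ERK and drives that drift. The kinase GSK3 marks beta-catenin for destruction, and blocking it frees beta-catenin to relieve repression by the factor Tcf7l1. Medium with both inhibitors holds the cells in the uniform naive state called the ground state, which is known for high naive transcription factors, low lineage genes and low DNA methylation.

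Library totals were 48723436 and 19467093 expected counts in serum/LIF and 20872129 and 20436474 in 2iL. Levels are CPM, the count divided by the library total and scaled to a common total, given for replicate 1 and then replicate 2, and changes are log2 fold changes of 2iL over serum/LIF ± standard error. The change is fitted after a further scaling of the libraries, which lowers 2iL by about the ratio of the factors 1.0448 and 1.0631 to 1.0086 and 1.0048. A gene passed where edgeR's quasi-likelihood test over 16987 genes gave an adjusted p (Benjamini-Hochberg) under 0.05. With 3 counts taken as the least that can be told from none, the floor is 0.0616 and 0.154 CPM in serum/LIF and 0.144 and 0.147 CPM in 2iL. Transcripts encoded by mitochondrial DNA took 9.44% and 11.85% of counts in serum/LIF and 6.75% and 6.41% in 2iL, and 14 of 15 such genes passed as lower. The 7 ES cell markers were all above 0 in every library. Their summed level was 1900 and 2232 CPM in serum/LIF and 4321 and 3887 CPM in 2iL. Within the set Lin28a fell, from 314 and 278 CPM to 16.8 and 29.3 CPM, Sall4 did not pass and the rest rose.

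Over all genes tested, 9311 passed, which is 54.8%. Of these, 4802 (28.3%) were higher and 4509 (26.5%) were lower in 2iL. Counts of list members given below are to be read beside these shares. When a log2 change of 1 or more was also required, 2141 (12.6%) were higher and 3233 (19%) were lower. The groups did not overlap in 76.6% of genes, so lack of overlap alone says little here. The median log2 fold change was 0.04. In bulk RNA fewer cells of a type and less RNA per cell cannot be told apart. By chromosome the median ran from -0.17 on X, over 613 genes, to 0.16 on chromosome 11, over 1303 genes, with -0.15 over the 12 genes of Y. Mitochondrial DNA stood apart at -0.91.

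The 10 lowest log2 fold changes, among genes called with a mean of 5 CPM or more in either medium, included those of Gbp2b, Lox, Acta2, Inhba, Cav1, Car4, Col3a1, Thbs1 and Pcdh7. Lox, an enzyme that crosslinks collagen, stood at 86.1 and 111 CPM in serum/LIF and had no count in 2iL, which makes it at least 680-fold lower. Gbp2b, an interferon-inducible GTPase, went from 131 and 66.8 CPM to no count, at least 679-fold lower. Cav1, the coat protein of caveolae, and Inhba, the activin A subunit, also had no count in 2iL. They were at least 400-fold and at least 433-fold lower. Thbs1, an extracellular matrix glycoprotein, fell from 824 and 627 CPM to 0.0958 and 0.0979 CPM, both under the floor. Several of these genes are also known from fibroblasts, whose 16 markers summed to 1226 and 1123 CPM in serum/LIF and to 39.8 and 32.4 CPM in 2iL. Their part in these falls was not tested.

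The 10 highest changes belonged to Ffar2, Bhmt, Sash3, Stra8, Pkd2l1, Tlx2, Crxos, Slfn8, Tex13b and Ffar3. These genes were at or near 0 in serum/LIF and moderate in 2iL. Crxos, a homeobox gene of the early embryo, stood at 0.493 and 0.205 CPM in serum/LIF and at 107 and 89.2 CPM in 2iL (7.85 ± 0.33, adjusted p = 4.7e-09). Bhmt, which remethylates homocysteine with betaine, went from 0.0821 and 0.103 CPM to 95.6 and 48 CPM. Pkd2l1, a cation channel, went from 0.103 and 0.257 CPM to 39.8 and 45.2 CPM. Ffar2, a receptor for short-chain fatty acids, had no count in serum/LIF and 7.04 and 4.4 CPM in 2iL, at least 53.1-fold higher.

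Naive pluripotency genes were higher in 2iL. Of 16 tested 14 rose and 1 fell, with a median log2 fold change of 2.07 beside 0.04 over all genes. Nanog, a homeodomain factor of the naive network (ENSMUSG00000012396.12, chr6:122707489-122714633), stood at 141 and 175 CPM in serum/LIF and at 883 and 803 CPM in 2iL. Both 2iL libraries lay above both serum/LIF libraries, and the change was 2.35 ± 0.15 (adjusted p = 4.27e-08). Prdm14, which represses FGF receptor and DNA methyltransferase genes (chr1:13113457-13127163), went from 2.22 and 4.73 CPM to 75.4 and 70.9 CPM, the largest rise of the list (4.43 ± 0.30, adjusted p = 8.26e-08). It was the naive gene nearest to absent in serum/LIF.

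Esrrb, an orphan nuclear receptor that beta-catenin signalling is known to favour (chr12:86361117-86521628), stood at 75.5 and 127 CPM in serum/LIF and at 619 and 671 CPM in 2iL (2.61 ± 0.22, adjusted p = 5.56e-07). Klf4, a target of LIF and STAT3 (chr4:55527143-55532466), went from 38.2 and 44.8 CPM to 165 and 121 CPM (1.73 ± 0.14, adjusted p = 4.54e-07). Nr5a2, a nuclear receptor that binds the Pou5f1 promoter (chr1:136842571-136960448), went from 27.4 and 41.7 CPM to 96 and 115 CPM (1.55 ± 0.16, adjusted p = 4.18e-06). For each of the 3 genes the groups did not overlap. Tbx3, a T-box factor, rose by 3.38 ± 0.12, Tfcp2l1, a factor that holds ES cells undifferentiated, by 3.31 ± 0.18, and Tcl1, a coactivator of Akt, by 3.15 ± 0.27. Fgf4, the FGF that ES cells secrete, rose as well (1.93 ± 0.19).

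The exceptions were Dppa3 and Klf5. Dppa3, a maternal factor that protects methylation in the zygote, was at 10.9 and 19.4 CPM in serum/LIF and 3.21 and 5.09 CPM in 2iL, a fall of 1.92 ± 0.39 (adjusted p = 0.00105). Klf5 stood at 124 and 102 CPM in serum/LIF and 146 and 143 CPM in 2iL and did not pass (0.29 ± 0.12, adjusted p = 0.0616). In every one of the 14 that rose, both 2iL libraries were above both serum/LIF libraries, as the plot of pluripotency genes by library shows. The groups did not overlap in 76.6% of all genes either, so this adds little to the calls.

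**Figure D1:**
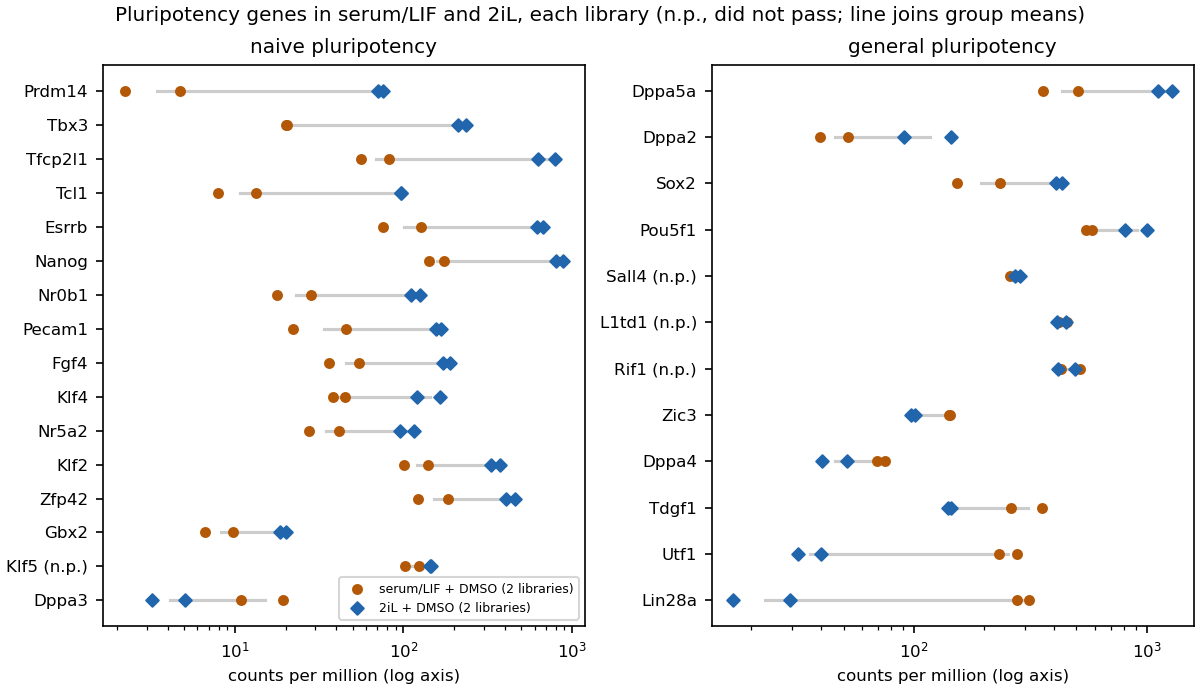
CPM (log axis) of 16 naive and 12 general pluripotency genes in each of the 2 serum/LIF (circles) and 2 2iL libraries (diamonds) with DMSO. Genes are ordered by log2 fold change, grey lines join group means, and n.p. marks genes that did not pass. Prdm14 sits near 2 to 5 CPM in serum/LIF and above 70 CPM in 2iL, while Lin28a and Utf1 lie lower in 2iL.

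The Nanog promoter is shown because Nanog is the best known member of the list and holds an exact POU octamer core. In RefSeq's GRCm38.p6 table of promoters (250 bases before to 50 after each start), 11 of the 16 genes had an entry, and the letters TTTGCAT, searched on both strands, stood in Nanog and Zfp42. They were in 5.24% of the 27025 genes with an entry. This motif was chosen after the data were seen. The capitals mark it within 100 bases of the Nanog promoter on the plus strand, chr6:122707367-122707466, where it begins 75 bases before the start.
Nanog: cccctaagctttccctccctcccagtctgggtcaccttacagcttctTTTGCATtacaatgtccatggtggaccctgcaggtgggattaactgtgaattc

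General pluripotency genes did not share a direction. Of 12 tested 4 rose and 5 fell, beside 28.3% and 26.5% of all genes, and 3 did not pass, with a median of -0.11. Pou5f1, the gene of the POU factor Oct4 (chr17:35506018-35510772), stood at 548 and 584 CPM in serum/LIF and at 1001 and 810 CPM in 2iL, a rise of 0.61 ± 0.17 (adjusted p = 0.00916). That call was lost without the first serum/LIF or without the first 2iL library. Sox2, its partner (chr3:34650405-34652461), went from 154 and 235 CPM to 407 and 433 CPM (1.05 ± 0.23, adjusted p = 0.00167). Lin28a, which blocks maturation of let-7 microRNAs, was at 314 and 278 CPM in serum/LIF and at 16.8 and 29.3 CPM in 2iL (-3.75 ± 0.22). Utf1, a chromatin factor of undifferentiated cells, fell from 232 and 278 CPM to 40.1 and 31.8 CPM (-2.89 ± 0.19). Sall4 (-0.00 ± 0.09), L1td1 and Rif1 did not pass.

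Levels of different genes can be set side by side only per transcript length, as the deposited TPM. On that scale Pou5f1 led Nanog in both media, with 562 ± 1.98 against 87.3 ± 9.93 TPM in serum/LIF and 975 ± 124 against 504 ± 25 TPM in 2iL (SD, n = 2). Esrrb (209 ± 27.3 TPM), Klf2 (258 ± 16.3 TPM) and Sox2 (273 ± 17.2 TPM) were close to one another in 2iL, with no test made between genes. In serum/LIF Esrrb, at 29.4 ± 8.82 TPM, was listed below Sox2, at 116 ± 29.5 TPM. Dppa5a, an RNA-binding protein, was the highest of the pluripotency genes in both media, at 1398 ± 247 and 4401 ± 250 TPM.

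LIF acts through the receptor pair Lifr and Il6st and the kinase Jak1 on Stat3, and was present in both media. Lifr (0.24 ± 0.16), Il6st (0.14 ± 0.20) and Jak1 (0.24 ± 0.15) did not pass. Stat3 rose by 0.51 ± 0.11, from 56.2 and 59.2 to 87.2 and 84.3 CPM. Of the 8 genes of this list 1 rose and 3 fell, beside 28.3% and 26.5% of all genes. Socs3, the feedback inhibitor that STAT3 induces, fell from 21.4 and 21.8 CPM to 7.76 and 7.49 CPM (-1.57 ± 0.14, adjusted p = 7.32e-07). Junb, which ERK also induces, fell by 4.11 ± 0.21, and the kinase Pim3 fell by 0.83 ± 0.12. The Socs3 promoter is shown because its change goes the other way from that of Stat3. It is the only 1 of the 8, all of which had an entry, with the STAT motif TTCNNNGAA, which 9.55% of genes hold on either strand. The motif is in capitals in this minus-strand stretch, chr11:117969467-117969566.
Socs3: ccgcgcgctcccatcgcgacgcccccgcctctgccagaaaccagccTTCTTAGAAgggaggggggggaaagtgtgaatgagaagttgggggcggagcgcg

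Targets and feedback inhibitors of MEK-ERK signalling were mostly lower in 2iL. Of 15 tested 10 fell and 3 rose, with a median of -2.36. Dusp6, a phosphatase that removes the activating phosphates from ERK (chr10:99263231-99267489), was at 115 and 72.3 CPM in serum/LIF and at 6.8 and 12.4 CPM in 2iL (-3.36 ± 0.27, adjusted p = 3.3e-07). Spry2, a Sprouty inhibitor of receptor tyrosine kinase signalling (chr14:105891947-105896819), went from 49.6 and 43.4 CPM to 8.58 and 11.5 CPM (-2.28 ± 0.14, adjusted p = 3.02e-08). Its relative Spry4 fell further, from 48.4 and 45.8 CPM to 0.383 and 0.881 CPM (-6.28 ± 0.26). Dusp4, a nuclear phosphatase for ERK, fell by 6.85 ± 0.37 and Phlda1, a pleckstrin homology protein, changed by -4.53 ± 0.42.

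Members of the same list did not move as a block. The ETS factors Etv4 (0.79 ± 0.14) and Etv5 (0.61 ± 0.11) rose, as did Spred2 (0.36 ± 0.11), whose call was lost without the first serum/LIF or the second 2iL library. Etv5 went from 290 and 352 CPM to 491 and 535 CPM. Ccnd1, the cyclin D1 gene, stood at 175 and 143 CPM in serum/LIF and at 151 and 176 CPM in 2iL and did not pass (-0.03 ± 0.17). Among 11 immediate early genes, which respond to growth factors within minutes, 8 fell and 1 rose, with a median of -3.15, or -2.38 with Egr3 at its bound. Egr1 fell from 21.2 and 18.6 CPM to 0.719 and 0.294 CPM (-5.35 ± 0.41), and Jun fell from 61.2 and 38 CPM to 2.73 and 2.69 CPM (-4.26 ± 0.26). Ier2 rose by 0.57 ± 0.11.

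Genes of the formative and primed states, which the epiblast passes through around implantation, were lower. Of 13 tested 10 fell, with a median of -2.03. The 3 that did not pass were Foxd3 (-0.22 ± 0.30), Tcf15 (-0.34 ± 0.26) and Zic2 (0.45 ± 0.29). Fgf5, the classic marker of the primed epiblast (chr5:98254184-98277030), was at 12.6 and 16.2 CPM in serum/LIF and at 0.383 and 0.0979 CPM in 2iL (-5.92 ± 0.43, adjusted p = 1.35e-07). The 2iL libraries stood around the floor, so the size of that fall is uncertain. Pou3f1, the gene of Oct6, fell from 117 and 94.5 CPM to 1.34 and 0.881 CPM (-6.63 ± 0.22). Otx2, which opens enhancers of the primed state, fell by 3.08 ± 0.32, and Grhl2, an epithelial factor, fell by 4.29 ± 0.17.

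Genes that write, maintain or oxidise DNA methylation numbered 9, with 3 higher and 3 lower, shares near the 28.3% and 26.5% of all genes. Dnmt3b, a de novo methyltransferase (chr2:153649450-153687730), was at 466 and 566 CPM in serum/LIF and at 49.3 and 53.8 CPM in 2iL (-3.39 ± 0.14, adjusted p = 2.07e-09). Dnmt3l, its cofactor without catalytic activity (chr10:78041947-78063622), fell from 166 and 175 CPM to 1.1 and 0.44 CPM (-7.84 ± 0.37, adjusted p = 4.7e-09). Dnmt3a fell by 0.66 ± 0.21, a call lost without the second serum/LIF or the first 2iL library. Dnmt1, the maintenance methyltransferase, went from 231 and 236 CPM to 340 and 436 CPM (0.67 ± 0.12), and Uhrf1, which brings Dnmt1 to newly copied DNA, from 239 and 237 CPM to 600 and 655 CPM (1.33 ± 0.10). Tet2, an enzyme that oxidises methylcytosine, rose by 2.42 ± 0.24, while Tet1 and Tet3 did not pass. DNA methylation itself was not measured here.

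Wnt target genes did not share a direction. Axin2, the usual reporter of beta-catenin with TCF (chr11:108920349-108950783), stood at 43.9 and 29.1 CPM in serum/LIF and at 40 and 53.6 CPM in 2iL. The groups overlapped and the gene did not pass (0.28 ± 0.26, adjusted p = 0.384). Of 14 targets tested 4 rose and 7 fell, beside 28.3% and 26.5% of all genes, with a median of -0.69. Cdx1, a caudal homeobox gene, rose from 3.61 and 2.36 CPM to 56.8 and 29.8 CPM (3.73 ± 0.29), and Notum, a secreted enzyme that inactivates Wnt proteins, from 24.3 and 37.7 CPM to 66 and 75.8 CPM (1.14 ± 0.20). T, the Brachyury gene of early mesoderm, fell from 125 and 75.5 CPM to 1.63 and 3.08 CPM (-5.48 ± 0.30). Lef1, a TCF family factor, fell from 36 and 29.4 CPM to 1.05 and 2.54 CPM (-4.26 ± 0.36), and Lgr5, a receptor for R-spondin, had no count in 2iL, at least 7.46-fold lower. Sp5, a zinc finger factor, fell from 127 and 73.9 CPM to 46.1 and 47.1 CPM (adjusted p = 0.00291), a call lost without the first serum/LIF library.

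In the GSK3 knockout libraries, which share the serum/LIF controls with this comparison, Axin2 stood at 121 and 105 CPM, a change of 1.65 ± 0.26 against unmodified serum/LIF cells. Cdx1 changed by 5.07 (adjusted p = 1.29e-07) and Lef1 by -1.02 (adjusted p = 0.0125) in the knockout. T, at -0.37, did not pass there (adjusted p = 0.217).

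Sp5 and T, targets that fell, are shown with the TCF letters in their promoters, since both are known Wnt targets. Of the 14 genes 9 had an entry. The letters CTTTGAT, in 4.29% of genes on either strand, stood in Sp5, and CTTTGAA, in 5.93% of genes, in Dkk1 and T. The stretches are chr2:70474772-70474871 for Sp5 and chr17:8434173-8434272 for T, both on the plus strand, and in T the match is on the other strand.
Sp5: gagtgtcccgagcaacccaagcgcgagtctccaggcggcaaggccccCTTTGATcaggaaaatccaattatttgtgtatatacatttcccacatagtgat
T: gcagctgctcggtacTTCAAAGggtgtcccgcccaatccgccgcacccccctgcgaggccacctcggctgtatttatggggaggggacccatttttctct

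Of 14 components of beta-catenin signalling 7 rose and 1 fell, with a median of 0.22. Tcf7l1, the repressor of naive genes that beta-catenin relieves, rose from 114 and 115 CPM to 211 and 165 CPM (0.65 ± 0.14). Tcf7l2 fell by 1.02 ± 0.18. Btrc, the ubiquitin ligase subunit that recognises phosphorylated beta-catenin, rose by 0.94 ± 0.13. Ctnnb1, the beta-catenin gene, went from 572 and 523 CPM to 703 and 683 CPM (0.27 ± 0.09), and its call was lost without the second serum/LIF or either 2iL library. Gsk3a (0.46 ± 0.13) and Gsk3b (0.44 ± 0.13) rose. Both calls were lost without the second serum/LIF library, and also without the first (Gsk3a) or the second (Gsk3b) 2iL library.

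Genes of the Nodal and BMP pathways, branches of TGF-beta signalling, were mostly lower. Of 14 Nodal pathway genes 9 fell and 4 rose, with a median of -0.66. The ligand Nodal fell from 188 and 182 CPM to 133 and 112 CPM (-0.66 ± 0.16), and its coreceptor Tdgf1 by 1.19 ± 0.21. Lefty1, a secreted inhibitor that Nodal induces (chr1:180935022-180938400), was at 106 and 167 CPM in serum/LIF and at 20.6 and 58 CPM in 2iL (-1.87 ± 0.36, adjusted p = 0.000635). Its neighbour Lefty2 (chr1:180893108-180899103) was at 215 and 307 CPM and at 40.6 and 111 CPM (-1.85 ± 0.38, adjusted p = 0.00119). In both genes the second 2iL library was more than 2 times the first, yet below both serum/LIF libraries. The 2 genes are close copies, so the authors' counting may have divided reads between them. Smad3 (0.77 ± 0.16) and the inhibitory Smad7 (0.65 ± 0.12) rose.

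Among 13 BMP and ID genes 9 fell and 3 rose, with a median of -2.63. Bmp4, which in serum-free culture with LIF is known to sustain ES cells through Id genes, fell from 64.1 and 51.4 CPM to 2.83 and 2.69 CPM (-4.45 ± 0.17). Id1, an inhibitor of basic helix-loop-helix factors, fell from 91.6 and 64.7 CPM to 1.39 and 1.03 CPM (-6.08 ± 0.25). Id2 (-5.61 ± 0.31) and Id3 (-2.63 ± 0.20) fell as well. Id4 went the other way, from 3.92 and 5.24 CPM to 22.6 and 29.2 CPM (2.46 ± 0.21). The receptors Bmpr1a and Bmpr2 fell by 0.80 ± 0.11 and 0.81 ± 0.19.

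Lineage genes were lower for mesendoderm, trophoblast and primitive endoderm. Of 11 mesendoderm genes 8 fell and 1 rose, with a median of -5.06, or -4.95 with genes at no count at their bound. Wnt3, the Wnt of the primitive streak, fell from 112 and 64.6 CPM to 0.527 and 0.294 CPM (-7.79 ± 0.51), Fgf8 by 7.07 ± 0.32 and Mixl1 by 4.95 ± 0.30. Eomes fell by 1.83 ± 0.20 and remained at 14.7 and 9.59 CPM. Gsc, the Goosecoid gene of the organiser, rose from 1.42 and 0.771 CPM to 12.6 and 6.7 CPM (3.00 ± 0.40).

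Trophoblast genes numbered 10, of which 8 fell and 2 rose, with a median of -4.32. Krt8, a keratin of simple epithelia, was at 1064 and 497 CPM in serum/LIF and at 3.64 and 3.52 CPM in 2iL (-7.83 ± 0.45), and its partner Krt18 fell by 8.47 ± 0.44. The first serum/LIF library was the higher for both keratins, and also for Cdx2, at 22.1 and 9.45 CPM against 0.671 and 0.587 CPM in 2iL (-4.73 ± 0.52). Tfap2c (1.09 ± 0.23) and Tead4 (1.30 ± 0.31), which the naive epiblast also expresses, rose. The sum of the 5 trophoblast markers was 79.6 and 40.8 CPM in serum/LIF and 2.73 and 2.2 CPM in 2iL, with Hand1 at 0 in the second 2iL library.

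Of 14 primitive endoderm genes 9 fell and 2 rose, with a median of -2.09. Col4a1, a collagen IV chain, fell from 198 and 182 CPM to 5.8 and 3.82 CPM (-5.37 ± 0.33), and the laminin gene Lamb1 from 441 and 439 CPM to 48.6 and 59.7 CPM (-3.09 ± 0.19). The defining transcription factors were low in both media. Gata4 was at 2.24 and 2.11 CPM in serum/LIF and did not pass, and Gata6, at 1.35 and 1.03 CPM, fell by 1.47 ± 0.41, a call lost without the first serum/LIF or the second 2iL library. Lama1, another laminin gene, rose by 1.29 ± 0.23, and Lamc1 did not pass (0.24 ± 0.19). Fibroblasts also express collagen IV and laminins, and this list and the fibroblast markers given above were both lower in 2iL. In the GSK3 knockout, against unmodified serum/LIF cells, 9 of the 14 passed as higher and 2 as lower, with a median of 2.42. Of 14 fibroblast markers tested 12 passed as lower there, with a median of -1.17. The part of fibroblasts in this list was not tested.

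Of 8 neural genes 3 rose and 2 fell, a split close to that of all genes (28.3% and 26.5%), with a median of -0.11. Sox21 rose from 1.27 and 1.7 CPM to 37.6 and 49.1 CPM (4.85 ± 0.23) and Sox1 rose to only 2.87 and 2.3 CPM. Nes, the intermediate filament nestin, fell from 323 and 216 CPM to 21.7 and 42.2 CPM (-3.15 ± 0.32). The 5 genes of the cleavage-stage Zscan4 set had log2 fold changes from 0.48 to 0.95 with overlapping groups, and did not pass. Zscan4c ranged from 4.11 to 7.94 CPM in serum/LIF and from 5.24 to 19.4 CPM in 2iL. Reads of this family, whose members are near copies, are hard to assign.

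Fibroblast markers were much lower in 2iL. Of 14 tested 14 fell, with a median fitted change of -9.33, or -4.66 with genes at no count set at their bound. Col3a1, a fibrillar collagen (chr1:45311538-45349706), was at 44.3 and 41.5 CPM in serum/LIF and had no count in 2iL, at least 295-fold lower (adjusted p = 1.32e-07). Col1a1 went from 522 and 484 CPM to 0.91 and 0.636 CPM (-9.40 ± 0.36), and Col1a2 from 153 and 196 CPM to 0.144 and 0 CPM. The sum of 16 fibroblast markers was 1226 and 1123 CPM in serum/LIF and 39.8 and 32.4 CPM in 2iL. In the 2iL libraries 8 and 7 of the 16 were above 0, and Col3a1, Postn, Dcn, Lum, S100a4, Twist2, Prrx1 and Fap were at 0 in both. Of the level left in 2iL most was Col5a1 (20.2 and 19.4 CPM) and Pdgfrb (10.3 and 7.1 CPM). The serum/LIF cells had been kept on fibroblasts. For any gene or list given here that fibroblasts also express, the part of fibroblasts in its change was not tested. The sum was 539 and 466 CPM in serum/LIF with JQ1 and 352 and 519 CPM in the knockout in serum/LIF.

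**Figure D2:**
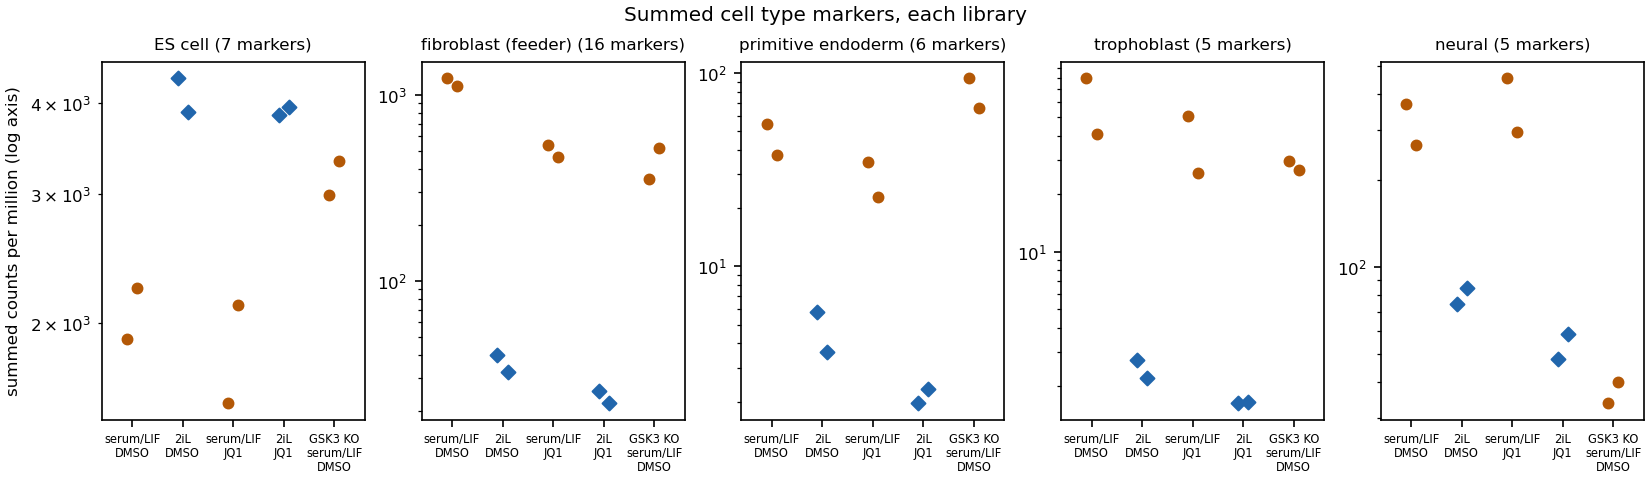
Summed CPM (log axis, a separate range in each panel) of 5 sets of cell type markers in each library of 5 groups, with circles for serum/LIF and diamonds for 2iL. Fibroblast markers sum to 1226 and 1123 CPM in serum/LIF with DMSO and to 39.8 and 32.4 CPM in 2iL with DMSO. The sum of the ES cell markers is higher in 2iL, although Lin28a among them is lower.

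Contractile and cytoskeletal genes driven by serum response factor (SRF) were lower. Of 14 tested 14 fell, with a median of -5.10, or -5.05 with genes at no count at their bound. Acta2, smooth muscle actin (chr19:34241090-34255590), was at 398 and 282 CPM in serum/LIF and at 0 and 0.0489 CPM in 2iL, 1 count in all (adjusted p = 5.07e-09). The ratio was 15071, with a 95% counting interval from 2705 to 595282. Tagln, the actin-binding protein SM22 (chr9:45929619-45936058), was at 566 and 363 CPM in serum/LIF and at 0.144 and 0.0489 CPM in 2iL, at or under the floor (-12.21 ± 0.52, adjusted p = 2.45e-09). Members that stayed well above the floor in 2iL fell less. Flna, filamin A, went from 2449 and 1963 CPM to 355 and 493 CPM (-2.45 ± 0.23), Vcl, vinculin, from 518 and 413 CPM to 81.5 and 113 CPM (-2.33 ± 0.24) and Actn1 from 821 and 568 CPM to 341 and 318 CPM (-1.14 ± 0.20). Srf itself fell from 116 and 80.5 CPM to 47.7 and 41.3 CPM (-1.21 ± 0.16).

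Promoters of the 3 members with an exact CArG box, the site SRF binds, are shown because the whole list fell. Of the 14 genes 11 had an entry, and Vcl, Cnn2 and Myl9 held the motif on either strand, as did 1.81% of all genes. The motif is in capitals. All 3 stretches are on the plus strand, at chr14:20929148-20929247, chr10:79988499-79988598 and chr2:156775258-156775357.
Vcl: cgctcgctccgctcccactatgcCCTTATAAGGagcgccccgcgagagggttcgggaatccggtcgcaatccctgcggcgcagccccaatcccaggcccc
Cnn2: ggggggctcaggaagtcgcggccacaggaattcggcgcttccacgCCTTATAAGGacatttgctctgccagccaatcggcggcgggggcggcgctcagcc
Myl9: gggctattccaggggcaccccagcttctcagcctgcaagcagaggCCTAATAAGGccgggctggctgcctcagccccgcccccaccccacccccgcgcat

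Cnn2, a calponin, stood at 474 and 290 CPM in serum/LIF and at 17.8 and 16.5 CPM in 2iL (-4.54 ± 0.22). Myl9, a myosin light chain, went from 48.5 and 42.2 CPM to 0.144 and 0 CPM. The 8 targets of YAP, a coactivator that responds to serum and to cell tension, all fell, with a median of -4.41. Ccn1 went from 501 and 305 CPM to 4.89 and 2.89 CPM (-6.76 ± 0.37) and Amotl2 from 444 and 263 CPM to 73.8 and 78.1 CPM (-2.29 ± 0.25).

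Adhesion genes mostly fell, on the epithelial and on the mesenchymal side. Of 13 tested 11 fell and 1 rose, with a median of -2.81. Esrp1, a splicing factor of epithelial cells, fell from 77.6 and 84.3 CPM to 0.0479 and 0.0979 CPM, a ratio of 1095 with a counting interval from 374 to 5310. The tight junction gene Cldn6 fell from 306 and 288 CPM to 2.44 and 3.28 CPM (-6.77 ± 0.16) and Epcam by 3.24 ± 0.12. Cdh1, E-cadherin, fell by only 0.82 ± 0.13 and stayed at 636 and 753 CPM. Fn1, fibronectin, fell by 0.53 ± 0.18, from 2900 and 2675 CPM to 1749 and 2290 CPM. Its call was lost without the first serum/LIF or the first 2iL library. In the JQ1 libraries Fn1 was higher in 2iL than in serum/LIF (1.27 ± 0.19). Zeb2, a repressor of E-cadherin, fell by 6.08 ± 0.55, while its relative Zeb1 rose from 6.53 and 7.76 CPM to 31.7 and 36.7 CPM (2.21 ± 0.15).

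Part of the germline list was higher in 2iL. Of 15 tested 7 rose and 8 did not pass, with a median of 0.87. Dazl, an RNA-binding protein of germ cells, went from 2.4 and 2.26 CPM to 98.7 and 65.6 CPM (5.06 ± 0.21). Sohlh2 went from 2.09 and 3.7 CPM to 90.3 and 78.6 CPM (4.88 ± 0.25) and Hormad1, a meiotic chromosome axis protein, from 2.05 and 3.08 CPM to 45.2 and 43.6 CPM (4.10 ± 0.26). Tex19.1 (2.43 ± 0.26) and Stag3, the meiotic cohesin subunit (1.82 ± 0.22), rose as well. Ddx4 (-0.33 ± 0.16), Sycp3 (0.26 ± 0.32), Mael (-0.18 ± 0.31) and Dmc1 (0.03 ± 0.43) did not pass.

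Promoters of 3 germline genes are shown because they hold the E-box CACGTG, which reads the same on both strands. Of the 15 genes 14 had an entry and 8 held the motif, beside 8.09% of all genes. Of the 8, Hormad1, Stag3 and Slc25a31 (a call lost without the first serum/LIF library) rose, and Ddx4, Mael, Sycp1, Sycp3 and Taf7l did not pass, so the motif is present in members that rose and in members that did not. The stretches, with the motif in capitals, are on the plus strand at chr3:95559573-95559672 (Hormad1), chr5:138280292-138280391 (Stag3) and chr10:88459476-88459575 (Sycp3).
Hormad1: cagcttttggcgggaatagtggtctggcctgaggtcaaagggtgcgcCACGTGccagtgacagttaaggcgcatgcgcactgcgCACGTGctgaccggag
Stag3: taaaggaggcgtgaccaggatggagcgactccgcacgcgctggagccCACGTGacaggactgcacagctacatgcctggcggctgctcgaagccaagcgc
Sycp3: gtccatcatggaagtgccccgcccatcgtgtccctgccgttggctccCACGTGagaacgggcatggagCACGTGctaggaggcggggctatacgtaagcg

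Imprinted genes, which are expressed from 1 parental copy, were lower. All 23 passed, 21 lower and 2 higher, with a median of -2.19. Peg10, a gene derived from a retrotransposon, fell from 1551 and 873 CPM to 5.46 and 4.4 CPM (-8.00 ± 0.39), and its neighbour Sgce fell by 5.34 ± 0.25. Igf2, the fetal growth factor, fell from 192 and 150 CPM to 0.192 and 0.147 CPM (adjusted p = 4.42e-09), and H19 beside it had no count in 2iL, at least 86.4-fold lower. The noncoding RNA Meg3 fell from 534 and 624 CPM to 278 and 327 CPM, and Rian from 380 and 469 CPM to 230 and 307 CPM. Plagl1, a zinc finger gene, rose from 3.47 and 4.06 CPM to 48.4 and 79.4 CPM (4.04 ± 0.31), and Zrsr1 rose by 0.93 ± 0.17. Several of these genes, Igf2 and Dlk1 among them, are also known from fibroblasts. The list and the fibroblast markers given above were both lower in 2iL. In serum/LIF the summed list stood at 5261 and 4514 CPM with DMSO and at 5808 and 4571 CPM with JQ1. In the GSK3 knockout with DMSO it stood at 5078 and 4251 CPM. In these groups the 16 fibroblast markers summed to 1226 and 1123, 539 and 466, and 352 and 519 CPM. The part of fibroblasts in this list was not tested.

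Of 12 Polycomb genes 7 rose and 2 fell, with a median of 0.41. Mtf2 went from 206 and 250 CPM to 597 and 525 CPM (1.23 ± 0.13), Suz12 from 162 and 184 CPM to 356 and 365 CPM (1.00 ± 0.09) and Ezh2, the methyltransferase of the complex, from 106 and 111 CPM to 197 and 178 CPM (0.73 ± 0.10). Kdm2b fell by 0.50 ± 0.13 and Jarid2 by 0.48 ± 0.16, the latter call being lost without the second serum/LIF or either 2iL library.

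Genes of the G1 and S phases changed in both directions, and those of G2 and M that passed rose. Of 16 G1 and S phase genes 8 rose and 5 fell, with a median of 0.22. Ccnd2, the cyclin D2 gene, fell from 64 and 80.6 CPM to 4.41 and 3.13 CPM (-4.32 ± 0.22), whereas Ccnd3 rose from 129 and 111 CPM to 315 and 241 CPM (1.14 ± 0.14). Among inhibitors of cyclin-dependent kinases, 3 that rose were Cdkn2c, from 0.246 and 0.257 CPM to 6.08 and 4.45 CPM (4.31 ± 0.35), Cdkn2a, from 6.9 and 7.96 CPM to 36.1 and 32.7 CPM (2.15 ± 0.15), and Cdkn1b, from 16.9 and 17.6 CPM to 36 and 42.6 CPM (1.12 ± 0.13). Cdkn1a rose as well, from 95.4 and 66 CPM to 167 and 129 CPM (0.81 ± 0.20). That call was lost without the second serum/LIF or without the first 2iL library. Cdkn1c, which is imprinted, fell by 3.18 ± 0.20, and Cdkn2b did not pass (-0.50 ± 0.21, adjusted p = 0.0532). E2f1 rose by 1.97 ± 0.15. Of 12 G2 and M phase genes 8 rose and 4 did not pass, with a median of 0.48 and the highest value, 0.88, in the mitotic kinase gene Aurkb. Mki67 (-0.36 ± 0.24) did not pass.

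Myc, which drives growth and is itself induced by ERK and LIF signals, fell from 84.9 and 67.8 CPM to 6.61 and 7.24 CPM (-3.53 ± 0.16). Mycn fell from 221 and 253 CPM to 93.2 and 112 CPM (-1.28 ± 0.16), and Mxi1, a Myc antagonist, rose by 1.44 ± 0.17. Of the 9 genes of the family 2 rose and 2 fell, shares below those of all genes. Ribosome biogenesis genes, many of them known Myc targets, had a median of -0.00. Of 16 tested 2 rose and 4 fell, none by more than 0.48, and the nucleolar genes Ncl (0.08 ± 0.09), Npm1 (0.08 ± 0.12) and Fbl (0.11 ± 0.13) did not pass. Of 14 p53 targets 2 rose and 6 fell, beside 28.3% and 26.5% of all genes, with a median of -0.15. Perp, a desmosomal p53 target, fell by 4.69 ± 0.30, Pmaip1, the gene of Noxa, by 2.91 ± 0.29, and Sesn1 rose by 2.24 ± 0.14, while Mdm2 (-0.10 ± 0.18) and Bax (0.32 ± 0.15) did not pass.

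Lipid synthesis genes were higher and glycolysis genes mostly lower. Of 20 cholesterol synthesis genes 14 rose and 1 fell, with a median of 0.46. Insig1, a feedback protein of the SREBP system, rose from 34.8 and 39.8 CPM to 150 and 160 CPM (1.99 ± 0.11), Fdft1 by 1.17 ± 0.12 and Hmgcs1 by 0.87 ± 0.13. Of 10 fatty acid synthesis genes 9 rose and 1 did not pass, with a median of 1.00. Scd1, which desaturates stearate, went from 48.8 and 58.4 CPM to 443 and 468 CPM (3.02 ± 0.15), and Acly, which makes acetyl-CoA from citrate, from 224 and 238 CPM to 757 and 843 CPM (1.72 ± 0.10). Fasn rose by 0.57 ± 0.15, a call lost without the second serum/LIF or the second 2iL library.

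Of 16 glycolysis genes 9 fell and 4 rose, with a median of -0.44. The glucose transporter Slc2a1 fell from 1492 and 1242 CPM to 172 and 196 CPM (-2.96 ± 0.19) and Slc2a3 from 3249 and 2462 CPM to 1327 and 1424 CPM (-1.12 ± 0.19). Pfkl, a phosphofructokinase subunit, fell from 256 and 240 CPM to 70.8 and 70.5 CPM (-1.88 ± 0.10), and Ldha, which makes lactate, from 1195 and 1142 CPM to 393 and 357 CPM (-1.70 ± 0.12). Hk1 went the other way, from 27.2 and 30.3 CPM to 160 and 182 CPM (adjusted p = 5.07e-09), beside Hk2, which did not pass (0.06 ± 0.09). Gapdh did not pass either (0.11 ± 0.10). Metabolites were not measured. Of 14 serine synthesis and ATF4 target genes 8 rose and 2 fell, with a median of 0.67. Asns, asparagine synthetase, rose from 173 and 168 CPM to 789 and 737 CPM (2.09 ± 0.10), and Gpt2 rose by 1.68 ± 0.19, while Phgdh fell by 0.55 ± 0.14 and Ddit3 did not pass (0.09 ± 0.22).

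**Figure D3:**
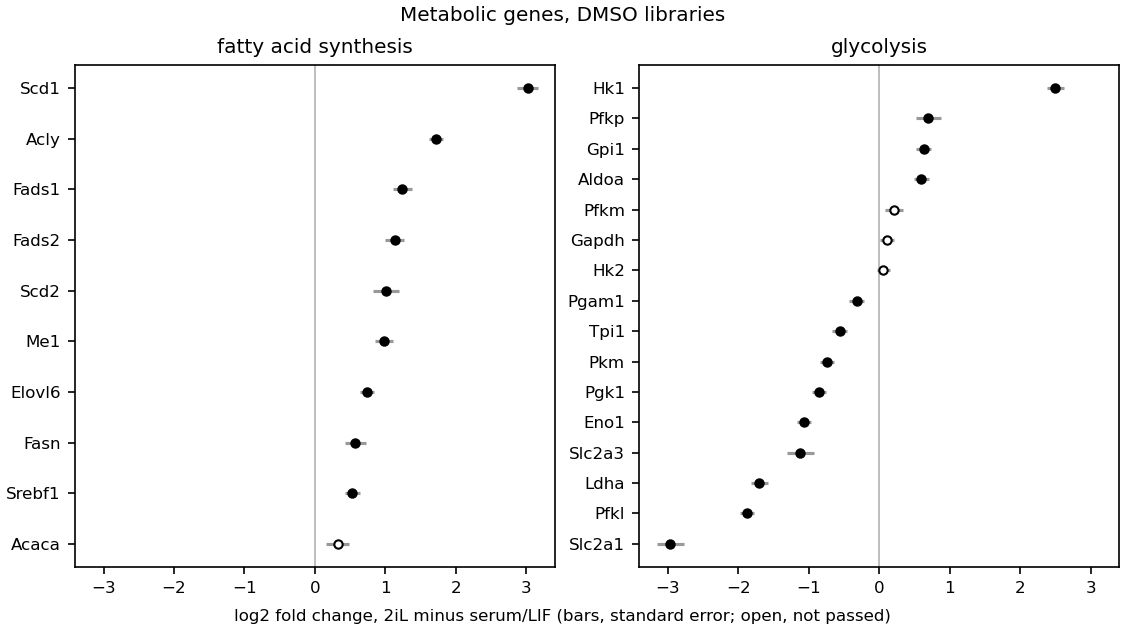
Log2 fold change of 2iL over serum/LIF in the DMSO libraries for 10 fatty acid synthesis and 16 glycolysis genes, with bars for the standard error and open points for genes that did not pass. Scd1 leads the fatty acid genes at 3.02, and Slc2a1 is the lowest of the glycolysis genes at -2.96.

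Across all 40 lists the fitted medians ran from -9.33 for fibroblast markers to 2.07 for naive genes, and with genes at no count at their bound the lowest was -5.05, for actin and SRF targets. The plot of list members shows single members far from their list, as Dppa3 does among the naive genes and Gsc among the mesendoderm genes.

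**Figure D4:**
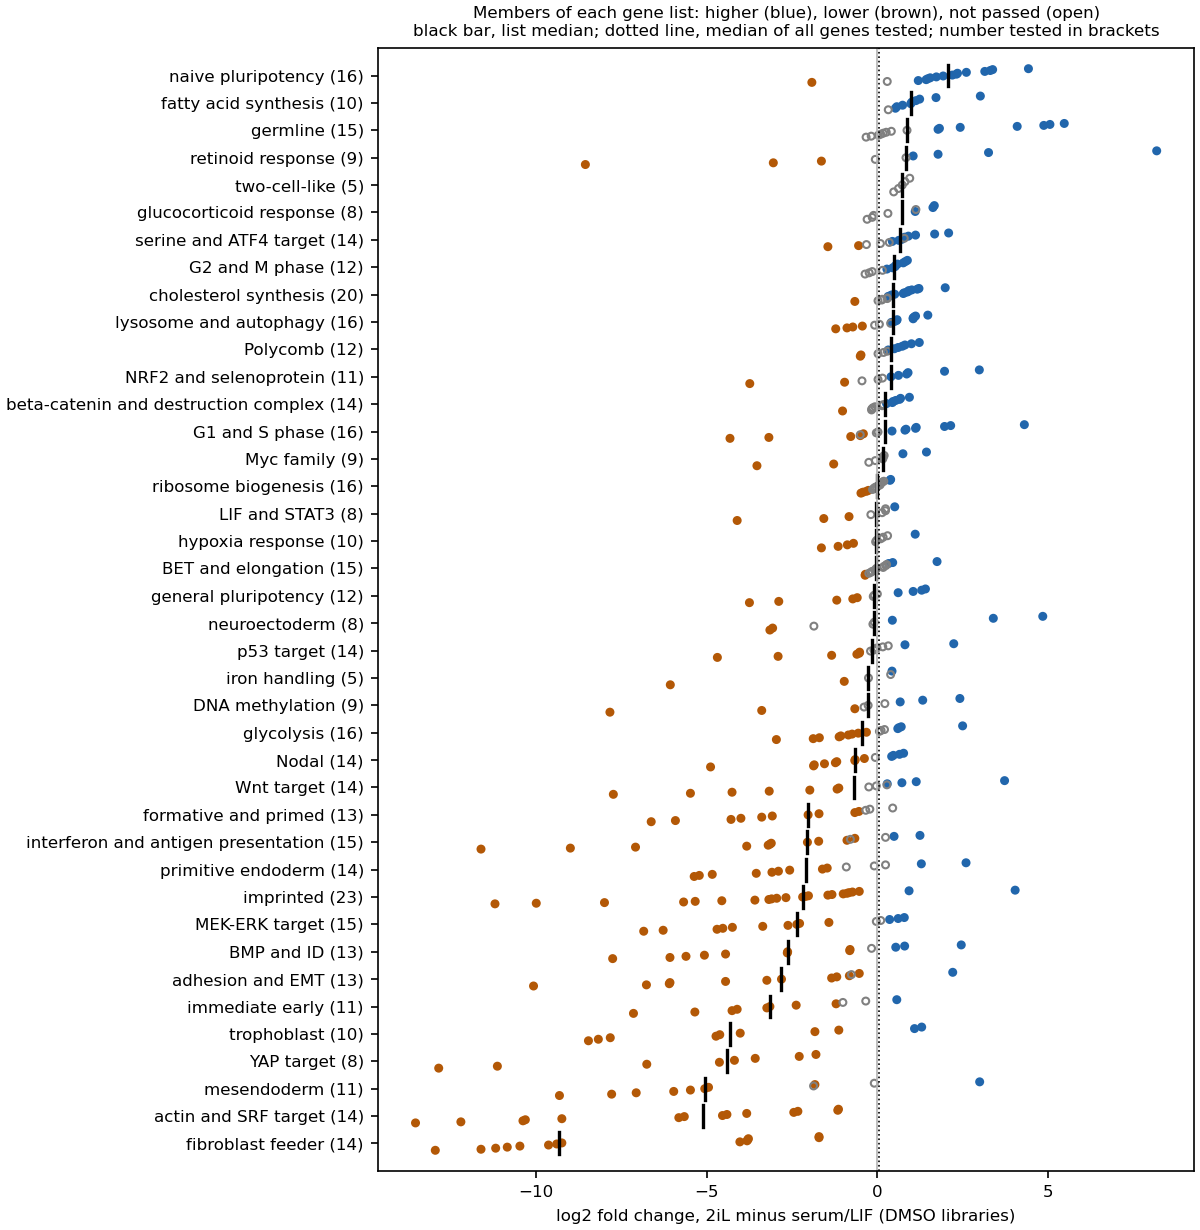
Log2 fold change of 2iL over serum/LIF for each tested member of 40 gene lists, ordered by list median (black bars), with the number tested in brackets. Filled points passed (blue higher, brown lower), open points did not, and the dotted line is the median of all genes at 0.04. Fitted values of genes with no count in a group depend on the fit's prior count, which touches the fibroblast list most.

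The same media comparison was made in the 4 libraries with JQ1, which share no library with those above. There 9046 genes passed (53.3%), 4307 higher (25.4%) and 4739 lower (27.9%). Of the 4802 genes higher with DMSO, 3428 (71.4%) also passed as higher with JQ1 and 53 (1.1%) as lower. Of the 4509 lower with DMSO, 3687 (81.8%) passed as lower and 19 (0.4%) as higher. Among genes that did not pass with DMSO, 11.2% were higher and 13.0% lower with JQ1. All 18 core genes except Axin2 passed with DMSO, and all 18 passed with JQ1 in the same direction as the fitted value with DMSO.

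The size of the 2iL effect differed between the DMSO and the JQ1 libraries for 8 of the 18 core genes, tested as the difference itself. Over all genes 4.16% (706) differed, 1.35% with a more positive effect with JQ1 and 2.8% with a more negative one. The core genes were chosen with earlier results of these data known, so their share beside that of all genes supports nothing. Of the naive factors, Nanog rose by 2.35 ± 0.15 with DMSO and by 4.18 ± 0.16 with JQ1, a difference of 1.83 ± 0.20 (adjusted p = 0.000654). Nr5a2 rose by 1.55 ± 0.16 and 4.70 ± 0.20, a difference of 3.15 ± 0.25 (adjusted p = 5.25e-05). The levels show where the difference lay. In 2iL Nr5a2 stood at 96 and 115 CPM with DMSO and at 116 and 115 CPM with JQ1, while in serum/LIF it stood at 27.4 and 41.7 CPM with DMSO and at 4.45 and 4.66 CPM with JQ1. Pou5f1 (0.01 ± 0.24) and Sox2 (0.26 ± 0.32) showed no difference that passed. Dnmt3l fell by 7.84 ± 0.37 with DMSO and by 4.29 ± 0.28 with JQ1, while Dnmt3b fell by 3.39 ± 0.14 and 3.08 ± 0.14, a difference that did not pass (0.31 ± 0.18, adjusted p = 0.413).

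**Figure D5:**
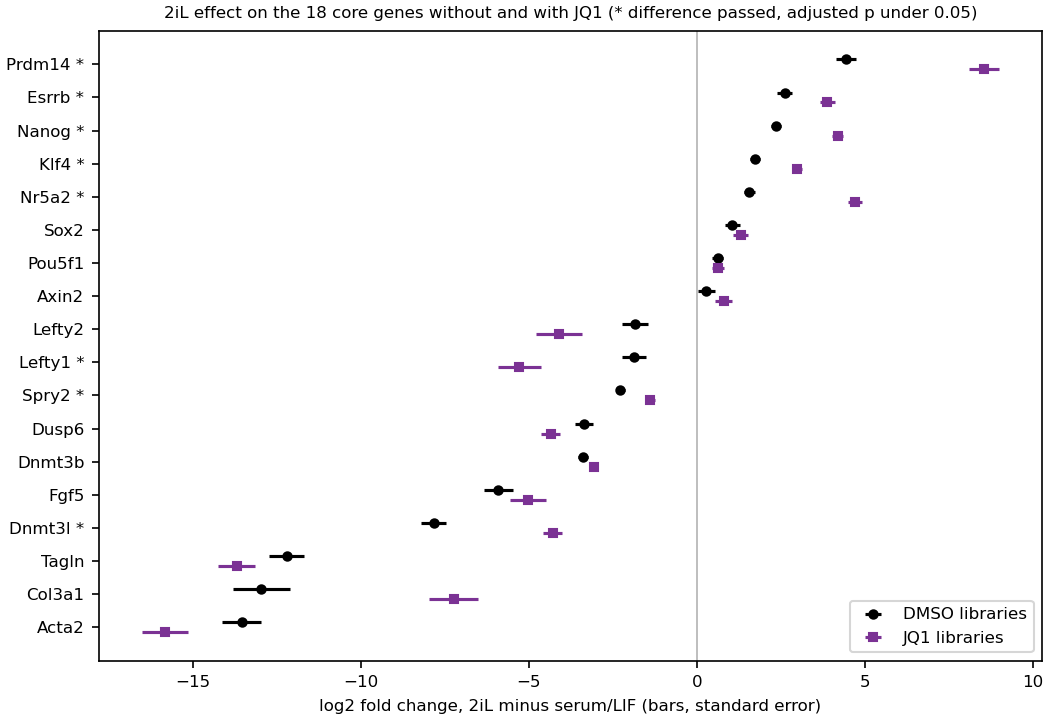
Log2 fold change of 2iL over serum/LIF for the 18 core genes in the DMSO libraries (circles) and the JQ1 libraries (squares), with bars for the standard error and asterisks where the difference between the effects passed. The naive factors Prdm14, Nr5a2 and Nanog lie further right with JQ1, and Pou5f1 and Sox2 nearly coincide. Values of Acta2, Tagln and Col3a1 rest on libraries at or near no count.

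The GSK3 knockout libraries in serum/LIF were set beside the 2iL values for the core genes. The knockout comparison, in which 40% of genes passed, shares the serum/LIF DMSO controls, so the values are given side by side only. Klf4 changed by 1.88 ± 0.14 in the knockout and by 1.73 ± 0.14 in 2iL, and Esrrb by 2.33 ± 0.22 and 2.61 ± 0.22. Nanog stood at 336 and 367 CPM in the knockout and at 883 and 803 CPM in 2iL, and Prdm14 changed by 1.65 ± 0.30 and 4.43 ± 0.30. Both Sprouty genes had opposite signs in the comparisons. Spry2 stood at 96.7 and 97.6 CPM in the knockout, a change of 1.09 ± 0.12, against -2.28 ± 0.14 in 2iL, and Spry4 changed by 2.34 in the knockout against -6.28 in 2iL. In the knockout 6 of the 15 MEK-ERK targets passed as higher and 5 as lower, against 3 and 10 in 2iL. Dusp6, Dusp4 and Etv4 had the same sign in both. Dusp6 changed by -0.64 ± 0.24 in the knockout (adjusted p = 0.0462) against -3.36 in 2iL, Dusp4 by -2.79 against -6.85, and Etv4 by 2.37 against 0.79. Dnmt3l, at 216 and 222 CPM in the knockout, did not pass (0.39 ± 0.23), while Dnmt3b changed by -2.13 ± 0.13. Fgf5 (-3.54 ± 0.35), Lefty1 (-3.21 ± 0.38), Lefty2 (-1.38 ± 0.38), Acta2 (-2.20 ± 0.26), Tagln (-3.68 ± 0.28) and Col3a1 (-1.75 ± 0.33) were lower in the knockout too.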

How the data were processed

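RNA was measured in 12 libraries of mouse ES cells, 6 groups of 2. The expected counts per gene were estimated by the authors with RSEM from reads aligned by STAR 2.5.2 to mm10, per the submitters' processing notes and the file headers, and were not scaled to depth. The annotation release, strand setting and filters are not given in the sources used here, so reads of overlapping or antisense genes, and of near copies, may be shared. The deposited TPM of the authors, per the file headers, was used only to set levels of different genes side by side.

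Expected counts were rounded to whole numbers. The quasi-likelihood test of edgeR 4.0.16, under R 4.3.3, fitted the 6 groups together after TMM scaling and the filterByExpr filter (min.count 10, min.total.count 15). This left 16987 of 52550 genes, 6 residual degrees of freedom and a common biological coefficient of variation of 0.129. The contrast was 2iL minus serum/LIF with DMSO, two-sided, with Benjamini-Hochberg adjustment over all genes tested. In 3 simulated runs of this comparison with 200 changed genes each, 58.7% of the genes altered by log2 1 were found, as were 83.3% at log2 2. Unaltered genes made up 6.17% of the calls. The runs altered far fewer genes than the 9311 that passed in the real comparison, so these shares may not hold for it. Standard errors are the log2 fold change divided by the square root of F. Genes without counts in a group were set at 3 counts per library, and counting intervals (95%, exact binomial) cover counting error only. Symbols and coordinates are from GENCODE mouse release M21 (GRCm38), in which 99.72% of identifiers matched without version. Promoters are from RefSeq (GRCm38.p6).

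The 40 gene lists, the core genes and the rule for naming genes (list members, and the 10 highest and 10 lowest log2 fold changes among genes called with a mean of 5 CPM or more in either medium, leaving out Gm, Rik and clone names) were chosen with earlier results of these data known, and so support nothing by their choice. Alternatives were DESeq2 1.42.0, RLE scaling, no filter, 1 CPM in 4 libraries, only the 4 libraries compared, a replicate block, no mitochondrially encoded genes, thinning to the smallest total, a log2 fold change of at least 1, and each library left out, where the remaining lone library borrows its spread from the rest. Results for some listed genes are not reported here.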

Additional observations from a re-analysis of the deposited data

Results flagged for a closer look

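The 8 core genes here are those for which the 2iL effect in the JQ1 libraries differed from that in the DMSO libraries, by edgeR's quasi-likelihood test of the difference with adjustment over all genes. The difference, JQ1 minus DMSO on the log2 scale, was 4.11 for Prdm14 (adjusted p = 0.00355), 3.15 for Nr5a2 (adjusted p = 5.25e-05), 1.83 for Nanog (adjusted p = 0.000654), 1.27 for Esrrb (adjusted p = 0.0297) and 1.26 for Klf4 (adjusted p = 0.00393). These 5 naive factors rose in both comparisons and more with JQ1. Prdm14 stood at 0.131 and 0.245 CPM in serum/LIF with JQ1, near the floor of 0.131 and 0.147 CPM, so the size of its difference is uncertain.

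For Dnmt3l the difference was 3.54 (adjusted p = 0.00191) and for Spry2 0.89 (adjusted p = 0.0176), both of which fell less with JQ1. Dnmt3l stood at 1.1 and 0.44 CPM in 2iL with DMSO and at 14.3 and 6.74 CPM in 2iL with JQ1. Lefty1 fell further with JQ1, by a difference of -3.43 (adjusted p = 0.0314), and was at 0.168 and 0.424 CPM in 2iL with JQ1, near the floor. Groups of 2 are too small for a search for single outlying libraries.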

How the results depend on the processing

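The 9311 genes that passed became 5374 when a log2 fold change of at least 1 was also asked. Under the other alternatives the count stayed within 1.5 times, at 8623 with DESeq2, 9136 with RLE scaling, 9679 without a filter, 8019 at 1 CPM in 4 libraries, 7853 in the 4 libraries alone, 9166 without mitochondrially encoded genes, 9014 after thinning and 7694 to 8395 with a library left out. The higher share was 51.6% with TMM scaling, and RLE scaling gave 4262 higher and 4874 lower. For JQ1 the 9046 genes became 7090 to 9214. No core gene changed direction or its call in these fits, except that Pou5f1 lost its call in 2 of the 4 that left a library out. Among 383 named genes (core or passed), 0 reversed in any fit run. With each of the 4 libraries left out in turn, 132 of 1532 results lost the call. Without leaving one out, 26 lost the call in the 4 libraries alone and 9 with DESeq2.

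With the replicate number as a block, 9572 genes passed (9273 of them shared with the fit without it) and 0 of the 383 named genes lost its call. The replicate deviations of the 2 groups correlated at 0.181, and 2 pairs do not show that the numbers pair the samples.

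Medians of 9 lists changed sign in at least 1 alternative, most widely the Zscan4 set (0.73, with a range of -0.51 to 1.32), and among them LIF and STAT3 (-0.23 to 0.02) and ribosome biogenesis (-0.13 to 0.04). Depth limits the many genes lowest in 2iL: 289 tested genes had no count there, and the falls of the 274 that passed are bounds.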

Other observations

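Antigen presentation and interferon-linked genes were lower in 2iL. Of 15 tested 11 fell and 2 rose, with a median of -2.05 beside 0.04 over all genes. H2-K1, a class I histocompatibility gene, stood at 107 and 95.8 CPM in serum/LIF and at 7.23 and 7.73 CPM in 2iL (-3.83 ± 0.17), and B2m, its light chain, at 66.5 and 51.4 CPM and at 8.05 and 5.38 CPM (-3.20 ± 0.21). Psmb8, an immunoproteasome subunit, had no count in 2iL and was at least 116-fold lower. Ifitm2 rose from 111 and 122 CPM to 308 and 273 CPM (1.25 ± 0.12). Fibroblasts also express class I genes, and the list moved with the fibroblast markers, whose part in it was not tested.

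Of 9 retinoid-linked genes 4 rose and 3 fell, beside 28.3% and 26.5% of all genes. Stra8, the retinoic acid-induced gate to meiosis, rose from 0.0616 and 0.205 CPM to 46 and 21.1 CPM (8.19 ± 0.54), and the receptor gene Rarb rose by 3.26 ± 0.66 while staying at 0.958 and 0.636 CPM. Cyp26a1, which degrades retinoic acid, fell from 31.2 and 25 CPM to 0.0958 and 0.0489 CPM, a ratio of 405 with a counting interval from 138 to 1967. Of 11 NRF2-linked and selenoprotein genes 6 rose and 2 fell, with Nqo1 at 5.17 and 6.88 CPM in serum/LIF and 41.2 and 57.8 CPM in 2iL (2.99 ± 0.21) and Selenop lower by 3.74 ± 0.30 on the log2 scale. The metallothioneins Mt1 (1.67 ± 0.18) and Mt2 (1.63 ± 0.17) rose, as did 9 of 16 lysosome and autophagy genes, among them Tfeb, a regulator of lysosome genes (1.12 ± 0.17), while 4 fell. Slc40a1, the iron exporter, fell from 24 and 23.3 CPM to 0.192 and 0.538 CPM (-6.07 ± 0.32), and Tfrc, the transferrin receptor, did not pass (-0.26 ± 0.13).

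Of 10 hypoxia response genes 1 rose and 4 fell, beside 28.3% and 26.5% of all genes. Vegfa rose by 1.11 ± 0.12 and Pdk1 fell by 1.64 ± 0.24. Of 15 BET and elongation genes 3 rose and 2 fell, shares below those of all genes. Brd2 (-0.03 ± 0.10) and Brd3 (0.27 ± 0.12) did not pass. The nuclear noncoding RNA Malat1, named after its values were seen, fell from 4739 and 4834 CPM to 1576 and 1470 CPM (-1.72 ± 0.12).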
